A study of Mus musculus with 12 samples.

Results

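The secreted and membrane-bound matrix proteases of the MMP and ADAMTS families, with their TIMP inhibitors, were examined in sorted mouse osteoblasts. The genes were taken by symbol from the deposited count table, as every *Mmp*, *Adamts* and *Timp1* to *Timp4* gene except the 3 procollagen propeptidases *Adamts2*, *Adamts3* and *Adamts14*. This gave 42 genes (22 *Mmp*, 16 *Adamts* and 4 *Timp*) out of 32288 entries, transgenes included. RNA-seq had been run on mGFP+ cells sorted from the metaphysis of femurs and tibias, in mice whose tamoxifen-activated Cre is driven by *Osx* (*Sp7*), a gene of immature osteoblasts. The study compared juvenile with adult osteoblasts and then asked what induced *c-Myc*, alone or with the *Trp53* mutation *R172H*, did to juvenile osteoblasts.

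There were 4 juvenile libraries (3 weeks of age) and 4 adult libraries (8 weeks of age). Their mice carried *Osx-CreERT2* and the *mTmG* reporter, and each library pooled 2 male mice, collected 2 days after 3 daily doses of tamoxifen. There were 2 *c-Myc* libraries, whose mice had in addition *LSL-tTA* and *Col1a1::TetO–c-Myc*, and 2 *c-Myc* + *R172H* libraries, whose mice had *Trp53-LSL-R172H* as well. All mice of the 4 groups therefore carried *Osx-CreERT2* and *mTmG* and all received tamoxifen. The induced mice were of both sexes, received tamoxifen on 2 days and were taken 7 days after it, and their diaphysis was trimmed at about 5 mm instead of 2 mm from the growth plate. Their titles give 3 weeks, whereas the dissection protocol calls them 5 weeks old, and the number of mice per induced library was not given. For tet-OFF inducible mice or pregnant females, the paper also describes doxycycline or tetracycline in the water, stopped before analysis, against leaky transgene expression. It does not describe this for the other mice. The effect of *c-Myc* and all these differences from the juvenile libraries cannot be told apart. The p-values for the induced groups use a spread per gene estimated over the juvenile and both induced groups together. With 2 libraries in each induced group, they carry little information on the spread within it.

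The libraries held 9066154 to 15684412 counts each. *Myc* stood at 39.8 to 52.2 CPM (counts scaled to library size) in the 8 control libraries and at 624 to 748 CPM in the 4 induced ones, while *R172H*, a base change, could not be read from gene counts. *Xist* was at 234 CPM in replicate 2 of *c-Myc* and at 212 CPM in replicate 2 of *c-Myc* + *R172H*, and at or under 1.24 CPM elsewhere. All 10 osteoblast markers exceeded 3 counts, the floor used here, in at least 1 library. Most of their sum was *Col1a1* and *Col1a2*. The sum was 596123 to 873834 CPM in juvenile and 363662 to 649125 CPM in adult libraries. It was 104109 to 137490 CPM in *c-Myc* and 58940 to 60854 CPM in *c-Myc* + *R172H* libraries. Of 8 osteoclast genes, *Dcstamp*, *Calcr* and *Ocstamp* had no count in any library. In juvenile libraries *Ctsk* was at 125 to 147 CPM and *Acp5* at 3.85 to 7.37 CPM. The osteoclast list summed to 130 to 152 CPM in juvenile and 93.9 to 116 CPM in adult libraries. Its sum was 18.5 to 23.8 CPM in *c-Myc* and 19.8 to 21.5 CPM in *c-Myc* + *R172H* libraries. Most of the sum was *Ctsk* in every group, a gene that is also among the other proteases below. *Acp5* was at 4.25 and 3.01 CPM in *c-Myc* and 3.07 and 2.33 CPM in *c-Myc* + *R172H* libraries. Its difference from juvenile did not pass the test in either induced group. The endothelial, erythroid and muscle lists summed to 3.24 CPM at most. The chondrocyte list of 10 genes summed to 18347 to 35558 CPM in juvenile, 42832 to 134051 CPM in adult, 1853 to 2114 CPM in *c-Myc* and 870 to 1041 CPM in *c-Myc* + *R172H* libraries. The marrow stromal list of 5 genes summed to 266 to 357 CPM in juvenile and 353 to 620 CPM in adult libraries. Its sum was 79.1 to 155 CPM in *c-Myc* and 62.9 to 81.9 CPM in *c-Myc* + *R172H* libraries. The part of the osteoblast, osteoclast, chondrocyte and marrow stromal lists in the results was not tested.

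MMPs are zinc-dependent proteases that cut collagens, gelatin and other matrix proteins, some secreted and some held at the cell surface. ADAMTS proteases are secreted and bind matrix, and several of them cut the large proteoglycans aggrecan and versican. TIMPs bind to and block both kinds of protease. In growing bone these enzymes are known for clearing calcified cartilage below the growth plate and for turning over the collagen of newly laid bone, and osteoblasts, hypertrophic chondrocytes and osteoclasts are all known sources.

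Part of the MMP family lies in a gene cluster, most of whose promoters hold the same motif, and 1 gene of it had nearly all the counts. On chromosome 9 (GRCm38), 9 *Mmp* genes lay between positions 7272514 and 7699585: *Mmp13*, *Mmp12*, *Mmp1b*, *Mmp3*, *Mmp10*, *Mmp8*, *Mmp27*, *Mmp20* and *Mmp7*. RefSeq promoter windows of build GRCm38.p6, from 250 bases before to 50 bases after a transcript start, matched 28 of the 42 genes in 31 windows. The AP-1 motif TGANTCA, searched on both strands, was in the windows of 7 of these 28 genes, and all 7 belonged to the cluster. Of the 15 matched genes with enough counts to test, only 1, *Mmp13*, held it. The motif was in 7.81% of all 32851 windows and in 8.97% of the 27025 genes with a window. The matches of the expressed gene *Mmp13* (chr9:7272467-7272496) and of 3 neighbours with few or no counts, *Mmp12* (chr9:7347318-7347347), *Mmp3* (chr9:7445764-7445793) and *Mmp10* (chr9:7502267-7502296), all on the plus strand, are shown with the motif in capitals, because they show the same core beside very different levels.
Mmp13: accccaaagtggTGACTCAtcactatcatg
Mmp12: tgacatcaacagTGAGTCAgatagaggatt
Mmp3: tggaagcaattaTGAGTCAgttttcgggtg
Mmp10: atagcacccatgTGAGTCAtgcttagtgac
The first capital lay at position -35 from the start in *Mmp13*, -44 in *Mmp12*, -46 in *Mmp3* and -63 in *Mmp10*. Summed over the 12 libraries, *Mmp13* had 47307 counts and the other 8 genes of the cluster had 110 counts together.

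The RUNX motif TGTGGT, for the factor family of the osteoblast regulator *Runx2*, was in 3 of the 15 matched genes with enough counts to test. These were *Mmp13*, *Mmp14* and *Mmp23*, against 18.9% of all genes with a window and 16.8% of all windows. All 3 fell with *c-Myc*, as did 18 of all 26 tested genes, and a link of motif and fall was not tested. Their matches are printed as examples. They lie at chr9:7272384-7272413 (+), chr14:54431472-54431501 (+) and chr4:155653544-155653573 (-), and the first 2 read the motif as its reverse complement.
Mmp13 RUNX: attctgccacaaACCACActtaggaagaaa
Mmp14 RUNX: atggcagcctgcACCACAgaaaagacaaac
Mmp23 RUNX: cccaaatttcatTGTGGTaccagagggttg
The E-box CACGTG, the core that MYC binds with MAX and its own reverse complement, was in 7.15% of all windows and 8.09% of all genes with a window. Among the 15 tested genes it was in *Adamts17* only (chr7:66839550-66839579, plus strand), a gene that also fell with *c-Myc*.
Adamts17: ctgcctagaaacCACGTGtaagaaagtgct
None of these printed matches overlapped another motif searched. The GC box GGGCGG was in 12 of the 15 tested genes, against 38.2% of all genes with a window and 35.7% of windows. Over all 28 matched genes the GC box was in 15, the RUNX motif in 6 and the E-box in 2. The shares of all genes cover genes with and without counts here, whereas the 15 were chosen by their counts. The GLI motif TGGGTGGTC was in none of the 28 genes, against 0.289% of all genes with a window and 0.253% of windows.

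Of the 42 genes, 26 had enough counts for a test in at least 1 comparison and 16 did not. *Mmp1b*, *Mmp7* and *Adamts19* had no count in any library, 8 genes (*Mmp8*, *Mmp20*, *Mmp21*, *Mmp24*, *Mmp27*, *Adamts13*, *Adamts16* and *Timp4*) never exceeded 3 counts, and no untested gene exceeded 17. A count of 3 corresponded to 0.137 to 0.417 CPM depending on the library. The membrane-type genes *Mmp14*, *Mmp15*, *Mmp16* and *Mmp17* were among those tested, as were *Timp1*, *Timp2* and *Timp3*, while the membrane-type genes *Mmp24* and *Mmp25* were not.

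Per kilobase of exon, the juvenile osteoblasts expressed few of these genes strongly. *Mmp2*, gelatinase A, was the highest at 355 ± 37.2 CPM per kb (SD, n = 4), followed by *Mmp13*, collagenase-3, at 206 ± 49.2 and *Timp1* at 148 ± 28.2 CPM per kb. *Mmp14*, the membrane-bound activator of pro-MMP2, came next at 83.3 ± 8.19, and *Timp2*, which takes part in that activation, at 56.9 ± 6.01 CPM per kb. *Mmp2* stood apart from *Mmp13* in every library, whereas *Mmp13* and *Timp1* overlapped. *Timp2* overlapped *Mmp9*, gelatinase B, at 37.8 ± 19.5 CPM per kb, which in turn overlapped *Mmp23*, a small MMP with a type II membrane anchor, at 29.7 ± 2.14 CPM per kb. The leading ADAMTS genes were *Adamts9* at 11.9 ± 0.548, *Adamts4* at 11.1 ± 2.48 and *Adamts1* at 9.58 ± 1.50 CPM per kb, 3 genes of the proteoglycan-cutting group. The range of *Adamts4* overlapped those of the other 2, while *Adamts9* was above *Adamts1* in every juvenile library.

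**Figure D1:**
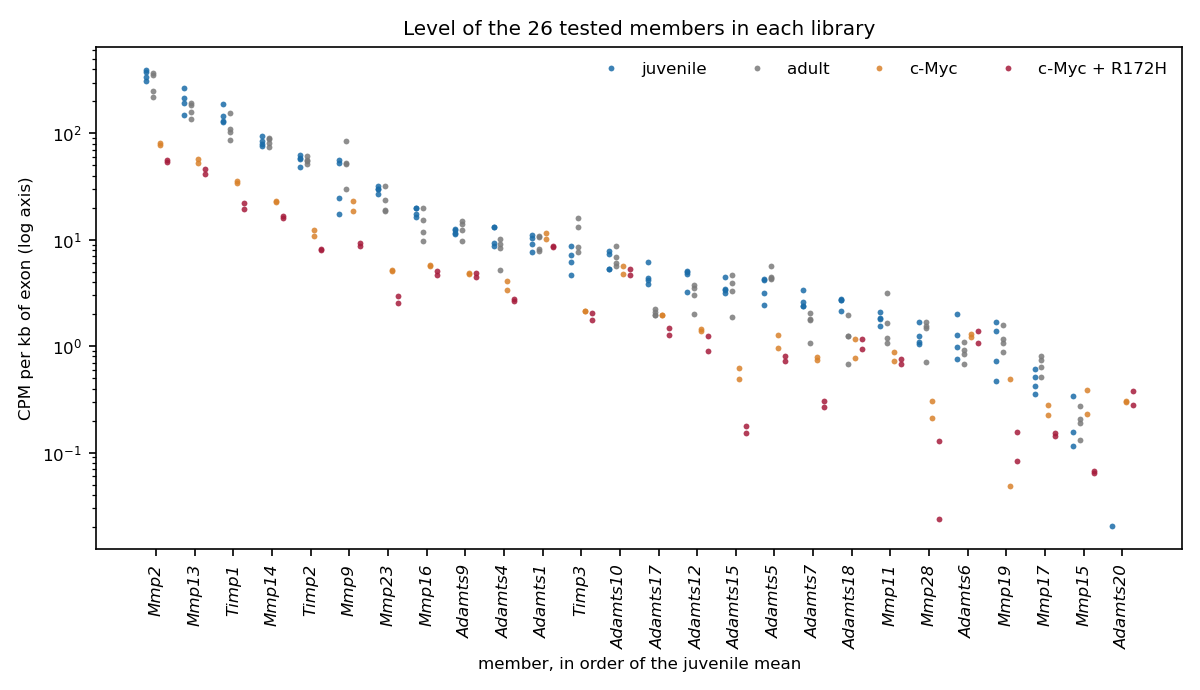
Level of the 26 tested genes in each of the 12 libraries, in CPM per kb of exon on a log axis, ordered by the juvenile mean; a point is 1 library, and libraries with no count are not drawn. *Mmp2* leads at 355 CPM per kb in juvenile libraries, the points of both induced groups lie below the juvenile ones for most genes, and *Adamts20* has points almost only in the induced groups.

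Few of these genes were called between juvenile and adult osteoblasts. Of 24 tested, 2 were called at an adjusted p of 0.05 (edgeR quasi-likelihood test, Benjamini-Hochberg over all 11345 genes tested), both higher in juvenile osteoblasts, against 5.12% of all genes called in either direction, 1.89% higher and 3.23% lower. When libraries were scaled by their totals alone, 1 was called higher and 1 lower, with no share of all genes given for that scale. The count was 1 without juvenile replicate 1, 2 or 4 or adult replicate 4, and 5 without adult replicate 2, where *Mmp16*, *Mmp23* and *Timp3* were called as well. The median log2 difference, juvenile minus adult, was 0.05 over the 24 genes and 0.00 over all genes tested. The juvenile and adult libraries did not overlap for 3 genes in the direction of higher juvenile levels and for 1 in the other, against 6.17% and 6.75% of all genes.

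Both called genes belong to the less studied end of the ADAMTS family. *Adamts17*, whose human counterpart is linked to short stature, stood at 32.3, 29.9, 34.2 and 47.7 CPM in juvenile libraries and at 15.3, 16.4, 17.2 and 15.2 CPM in adult ones. The groups were separate, and the adult libraries were tightly spaced. Its log2 difference was 1.16 (SE 0.18, adjusted p = 0.0014), and it was called under all 14 alternative settings. *Adamts18* stood at 28.5, 27.8, 21.6 and 27.7 CPM in juvenile and at 6.99, 12.8, 19.8 and 12.7 CPM in adult libraries, also without overlap, although the highest adult library came close to the lowest juvenile one. Its log2 difference was 1.02 (SE 0.24, adjusted p = 0.0236). That call was lost with library totals and without juvenile replicate 1, 2 or 4 or adult replicate 4, with adjusted p up to 0.0711.

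The enzymes with the highest levels were not called between the ages. *Mmp2* stood at 1046, 1145, 1260 and 1331 CPM in juvenile and at 737, 1235, 1194 and 847 CPM in adult libraries, with 2 adult libraries inside the juvenile range (log2 difference 0.25, SE 0.16, adjusted p = 0.454). *Mmp13* stood at 713, 579, 399 and 511 CPM in juvenile and at 420, 514, 365 and 495 CPM in adult libraries. *Mmp14* stood at 472, 450, 503 and 562 against 445, 543, 525 and 488 CPM. These ranges overlapped broadly, and the log2 differences were 0.29 (SE 0.16, adjusted p = 0.365) and -0.02 (SE 0.12, adjusted p = 0.969).

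None of the 3 inhibitors tested was called between the ages, although *Timp3* was called under 3 of 14 alternatives. *Timp3*, the TIMP that stays bound to matrix and blocks aggrecanases, had the largest difference towards adult, with means of 54.5 CPM in juvenile and 92.5 CPM in adult libraries (log2 difference -0.77, SE 0.25, adjusted p = 0.112). It was called with DESeq2 (adjusted p = 0.0187), with the replicate block (adjusted p = 0.0215) and without adult replicate 2 (adjusted p = 0.0286), and its adjusted p reached 0.236 under the others. *Timp1* stood at 130, 113, 167 and 116 CPM in juvenile and at 77.2, 96.9, 138 and 92.1 CPM in adult libraries (log2 difference 0.37, SE 0.17, adjusted p = 0.227). *Timp2* stood at 245, 227, 189 and 226 against 215, 202, 217 and 240 CPM. The *Timp2* ranges covered each other, with a log2 difference of 0.01 (SE 0.12, adjusted p = 0.977). Among the aggrecanases, *Adamts5* was higher in all adult libraries than in any juvenile one (means 50.7 and 37.8 CPM, log2 difference -0.43, SE 0.17), but its adjusted p was 0.165. It was the gene called lower with library totals. The other 15 tested genes had log2 differences between -0.53 and 0.68 and no call.

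The induction of *c-Myc* came with lower levels of most of these enzymes and of every inhibitor tested. Of 26 genes tested, 18 fell and 1 rose (adjusted p of 0.05, with a log2 fold change of 1 or more in size), against 34.4% of all 12588 genes tested that were called, 16% lower and 18.4% higher. The genes that fell were 7 of 11 *Mmp*, 8 of 12 *Adamts* and 3 of 3 *Timp* genes. The median log2 fold change was -1.67 over the 26 genes and 0.04 over all genes. For 19 genes both *c-Myc* libraries lay below all juvenile ones, against 28.7% of all genes, and for 1 gene both lay above, against 35.7%. In these bulk libraries, fewer cells of a type and less RNA per cell cannot be told apart.

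The scale of the libraries bears on these values. *Col1a1*, *Col1a2* and *Gm26917* took 57.1 to 65.3% of counts in juvenile and 35.2 to 46.1% in induced libraries, and scaling by library totals alone moved the median log2 fold change of all genes to 0.87 for *c-Myc* and 1.12 for *c-Myc* + *R172H*, both against juvenile. The share of all genes called on that scale is not given here, so the counts on it have no background beside them. There 8 of the 26 genes were called lower and 2 higher with *c-Myc*, and 21 of 26 had a negative log2 fold change. The 8 genes were *Mmp2*, *Mmp13*, *Mmp14*, *Mmp23*, *Mmp28*, *Timp1*, *Timp2* and *Adamts15*, and those higher were *Adamts20* and *Adamts1*.

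The gelatinase *Mmp2* fell to 262 and 276 CPM in the *c-Myc* libraries, 4.51-fold below the juvenile level (log2 fold change -2.17, SE 0.11, adjusted p = 1.87e-08). *Mmp13* fell to 152 and 141 CPM, 3.82-fold below juvenile (log2 fold change -1.93, SE 0.19). *Mmp14* fell to 139 and 136 CPM, 3.67-fold below juvenile (log2 fold change -1.87, SE 0.10). For each of these genes the induced libraries were close together and lay below the lowest of all 8 control libraries.

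The largest decrease among the MMPs was that of *Mmp23*. It stood at 70.8, 62.9, 69.7 and 75.0 CPM in juvenile, at 43.2, 74.2, 55.8 and 44.5 CPM in adult, and at 11.8 and 12.3 CPM in *c-Myc* libraries. The fall was 5.88-fold (log2 fold change -2.56, SE 0.14, adjusted p = 3.56e-08). *Mmp28*, epilysin, *Mmp16*, a further membrane-type enzyme, and *Mmp11*, stromelysin-3, also fell, by 2.30, 1.70 and 1.21 on the log2 scale. *Mmp28* and *Mmp11* had juvenile means of only 4.91 and 5.07 CPM and overlap genes on the opposite strand. *Mmp9* was not called (log2 fold change -0.89, SE 0.50, adjusted p = 0.187). Its juvenile libraries were spread at 188, 86.9, 198 and 62.2 CPM, and the *c-Myc* libraries, at 66.0 and 81.1 CPM, lay within that range. *Mmp17*, *Mmp19* and *Mmp15* were not called either, at log2 fold changes of -0.92, -1.99 (adjusted p = 0.0582) and 0.96.

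The inhibitors fell with the enzymes. *Timp2* fell to 42.3 and 48.4 CPM, 4.97-fold below juvenile (log2 fold change -2.31, SE 0.13, adjusted p = 3.82e-08), and *Timp1*, which lies on chromosome X, fell to 32.0 and 30.1 CPM, 4.28-fold below juvenile (log2 fold change -2.10, SE 0.16). *Timp3* fell 3.19-fold (log2 fold change -1.67, SE 0.22), to 17.6 and 17.4 CPM. The exons of *Timp3* overlap those of *Syn3* on the opposite strand, and the strand setting of the counting was not stated. The *Timp1* values of the *c-Myc* libraries with and without *Xist* differed by less than the spread between juvenile libraries.

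Within the ADAMTS family, the genes known to cut proteoglycans did not all fall: *Adamts4*, *Adamts5*, *Adamts9* and *Adamts15* fell, and *Adamts1* was not called. *Adamts20*, also of this group, was called higher but passed the expression filter only through the induced libraries, as described below. This grouping is from general knowledge and was not tested as a list. *Adamts15* had the largest decrease of all 26 genes. It stood at 36.0, 35.1, 46.6 and 32.8 CPM in juvenile, at 19.4, 40.9, 48.7 and 34.5 CPM in adult, and at 5.12 and 6.52 CPM in *c-Myc* libraries, a fall of 6.56-fold (log2 fold change -2.71, SE 0.21, adjusted p = 5.07e-07). The induced libraries lay well below every control library. The aggrecanases *Adamts4* and *Adamts5* fell by 1.60 and 1.69 on the log2 scale and *Adamts9* by 1.34, whereas *Adamts1* stood at 40.9, 55.3, 58.8 and 48.1 CPM in juvenile and at 53.9 and 61.5 CPM in *c-Myc* libraries (log2 fold change 0.17, SE 0.14, adjusted p = 0.341). *Adamts1* was singled out after its values were seen.

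*Adamts1* and *Adamts5* are neighbours on chromosome 16, on the same strand and 53.1 kb apart (85793827 to 85803113 and 85856173 to 85901828, GRCm38). *Adamts5* stood at 45.7, 34.4, 26.4 and 44.8 CPM in juvenile and at 10.3 and 13.7 CPM in *c-Myc* libraries. A library held 0.896 to 2.23 counts of *Adamts1* for each count of *Adamts5* in the juvenile group, and 4.50 to 5.22 in the *c-Myc* group. *Adamts15* lies 20.1 kb from *Adamts8* on chromosome 9, and *Adamts8* never exceeded 6 counts.

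The ADAMTS enzymes that cut cartilage oligomeric matrix protein, *Adamts7* and *Adamts12*, fell by 1.82 and 1.68 on the log2 scale. The 2 genes that were higher in juvenile than in adult osteoblasts also fell. *Adamts17* fell to 15.2 CPM in both *c-Myc* libraries (log2 fold change -1.27, SE 0.20, adjusted p = 0.000165), and *Adamts18* fell to 7.81 and 11.9 CPM (log2 fold change -1.45, SE 0.22, adjusted p = 0.000148). Both comparisons share the juvenile libraries. The *c-Myc* values of *Adamts17* lay beside the adult values of 15.2 to 17.2 CPM, and those of *Adamts18* within the adult range. *Adamts10* and *Adamts6*, both tied to fibrillin microfibrils, were not called, at log2 fold changes of -0.33 (SE 0.17) and -0.01 (SE 0.33), and both were positive with library totals, at 0.51 and 0.85.

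*Adamts20*, a versican-cutting enzyme known from the belted mutation of mouse coat colour, was the single gene that rose. It had 2, 0, 0 and 0 counts in the juvenile libraries, 0 in all 4 adult libraries, 59 and 48 in the *c-Myc* libraries and 55 and 68 in the *c-Myc* + *R172H* libraries. The count ratio to the juvenile group, scaled by library, was 48.6 for *c-Myc* (95% exact interval 13.1 to 406, for counting error only) and 52.5 for *c-Myc* + *R172H* (14.2 to 439). It passed the expression filter only through the induced libraries, where it is high, so a difference was built into its being tested. Its counts are therefore given as a description, and its call, which stands among the counts of called genes, is no separate support. The level stayed low, at no more than 2.72 CPM in the *c-Myc* libraries, which was 0.969 to 1.07% of their ADAMTS counts.

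**Figure D2:**
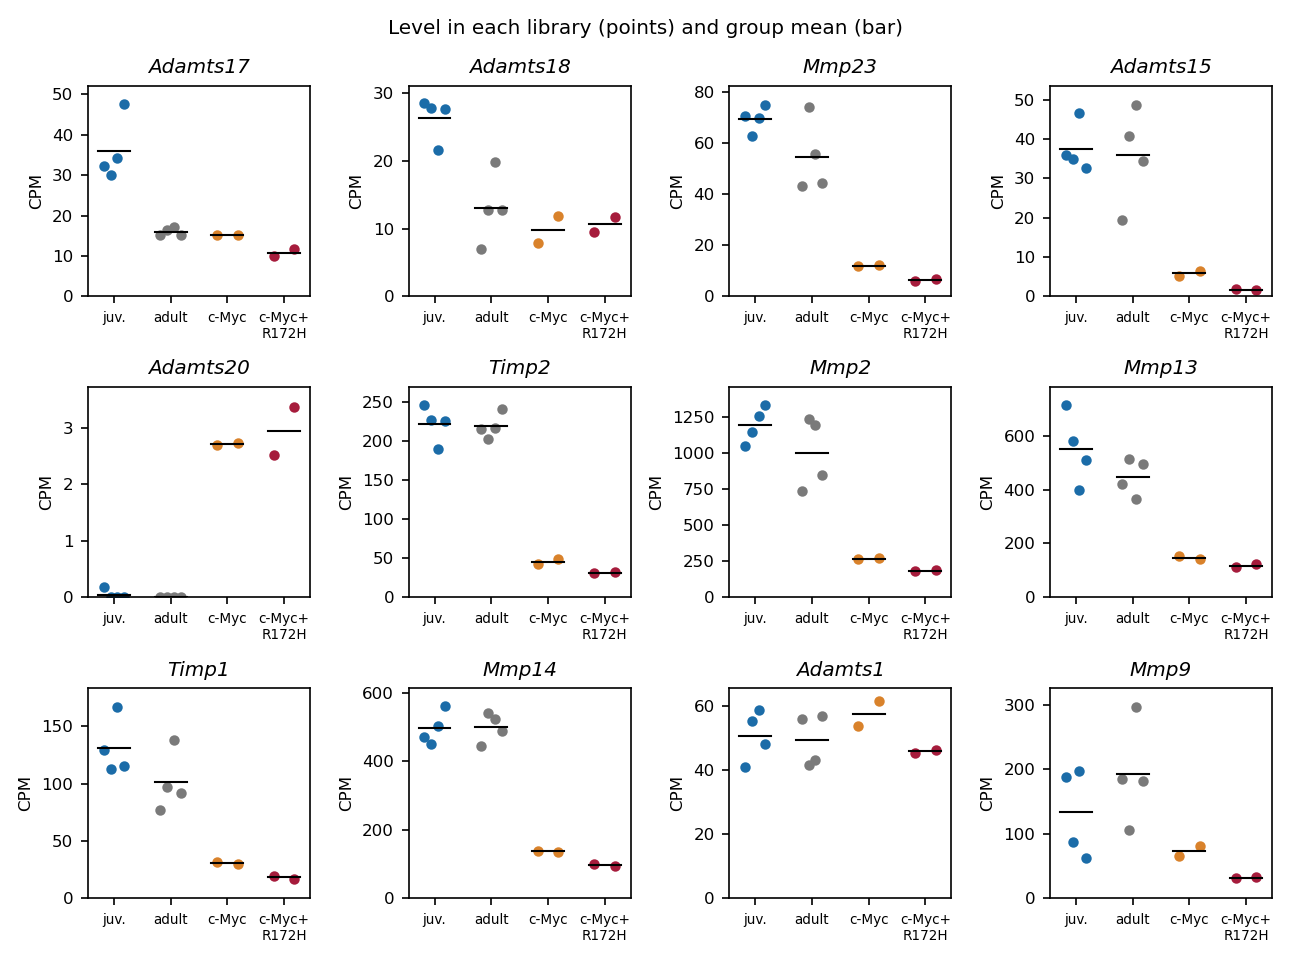
Level in CPM in each library (points) and group mean (bar) for the genes followed in every library and for *Adamts1* and *Mmp9*; every axis starts at 0. *Adamts17* and *Adamts18* separate juvenile from adult libraries, *Mmp2*, *Mmp13*, *Mmp14*, *Mmp23*, *Timp1*, *Timp2* and *Adamts15* separate induced from control libraries, *Adamts20* is near 0 in all controls, and *Adamts1* overlaps between juvenile and *c-Myc* libraries.

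Ratios within a library, which need no scaling between libraries, showed how far the families kept their proportions. The summed MMP level was 2483 to 2733 CPM in juvenile, 1934 to 2667 CPM in adult, 688 to 704 CPM in *c-Myc* and 478 to 492 CPM in *c-Myc* + *R172H* libraries. TIMP counts per 100 MMP counts were 14.4 to 16.8 in juvenile, 13.6 to 21.8 in adult, 13.4 to 13.6 in *c-Myc* and 13.4 to 13.6 in *c-Myc* + *R172H* libraries. The induced libraries thus lay below the juvenile ones by less than the width of the adult range. The summed MMP level differed several-fold on the CPM scale, which does adjust between libraries. As a share of all counts, without that adjustment, the 42 genes made up 0.253 to 0.314% in juvenile libraries. Their share was 0.138 to 0.144% in *c-Myc* and 0.122 to 0.125% in *c-Myc* + *R172H* libraries. *Mmp2* made up 39.3 to 48.7% of MMP counts in juvenile and 37.9 to 39.1% in the 4 induced libraries.

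Proportions within the ADAMTS family differed between control and induced libraries. *Adamts1* made up 7.86 to 10.6% of ADAMTS counts in juvenile, 7.56 to 14.0% in adult, 21.3 to 21.9% in *c-Myc* and 19.8 to 20.5% in *c-Myc* + *R172H* libraries. *Adamts10* made up 9.63 ± 1.35% in juvenile (SD, n = 4), 9.13 to 13.9% in adult and 15.6 to 18.7% in the induced libraries. Neither the ranges of *Adamts1* nor those of *Adamts10* overlapped between induced and control libraries. The summed ADAMTS level was 521 to 589 CPM in juvenile and 252 to 281 CPM in *c-Myc* libraries.

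**Figure D3:**
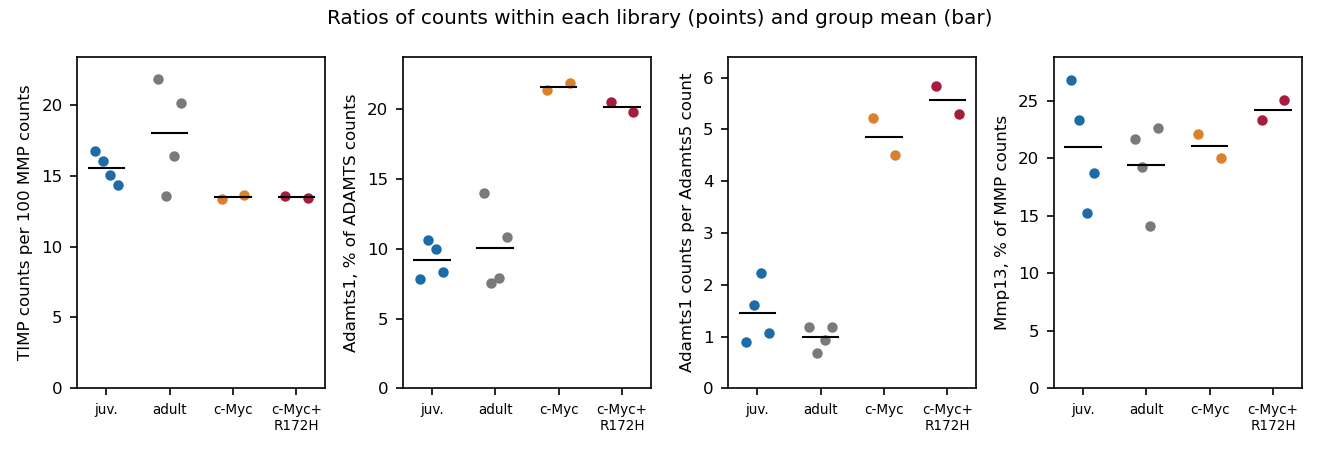
Ratios of counts within each library (points) with the group mean (bar), axes from 0: TIMP counts per 100 MMP counts, *Adamts1* as a percentage of ADAMTS counts, *Adamts1* counts per *Adamts5* count, and *Mmp13* as a percentage of MMP counts. The TIMP to MMP ratio is 13.4 to 13.6 in all 4 induced libraries, and both *Adamts1* ratios are higher in every induced library than in any control library.

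Adding *R172H* to *c-Myc* came with lower values again for most of the genes, but few passed the test. Of 26 genes, 2 were called and both fell (adjusted p of 0.05, edgeR quasi-likelihood test), against 0.469% of all genes called, 0.461% lower and 0.00794% higher. In direction, 24 of 26 were lower with *R172H*, with a median log2 fold change of -0.47 over the 26 genes and -0.00 over all genes. On the scale of library totals, where the median over all genes was 0.21, 18 of the 26 were lower. Both *c-Myc* + *R172H* libraries lay below both *c-Myc* libraries for 19 genes, against 27.5% of all genes, and for none did they lie above, against 17.5%. At an unadjusted p of 0.05, 8 of the 26 passed, against 589 of all 12588 genes. This comparison shares its libraries with those against juvenile.

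*Adamts15* fell further, from 5.12 and 6.52 CPM in *c-Myc* libraries to 1.83 and 1.59 CPM in *c-Myc* + *R172H* libraries, 3.31-fold (log2 fold change -1.73, SE 0.26, adjusted p = 0.012). *Mmp23* fell from 11.8 and 12.3 CPM to 5.90 and 6.90 CPM, 1.84-fold (log2 fold change -0.88, SE 0.16, adjusted p = 0.0319). These were also the genes with the 2 largest decreases in the comparison of *c-Myc* with juvenile. Over 14 alternative settings the direction held for both, and *Adamts15* was called in 9 and *Mmp23* in 6, with adjusted p up to 0.139 and 0.678. With library totals neither was called, and without *c-Myc* replicate 2 or either *c-Myc* + *R172H* library 0 of the 26 genes were (7 to 9 at an unadjusted p of 0.05, edgeR; DESeq2 on all these libraries called 7).

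Several further genes were lower in both *c-Myc* + *R172H* libraries without passing the adjusted test. *Mmp2* stood at 181 and 189 CPM against 262 and 276 CPM (log2 fold change -0.51, SE 0.11, adjusted p = 0.085). *Mmp14* stood at 99.8 and 95.2 against 139 and 136 CPM (-0.47, SE 0.11, adjusted p = 0.122). *Timp1* stood at 19.5 and 17.2 against 32.0 and 30.1 CPM (-0.73, SE 0.18, adjusted p = 0.131).

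For all 3 of these genes the *c-Myc* + *R172H* values lay below the *c-Myc* values by more than the replicates of either group differed. *Timp2* stood at 31.1 and 32.0 against 42.3 and 48.4 CPM (-0.49, SE 0.14, adjusted p = 0.24), and *Adamts7* at 1.69 and 1.94 against 4.66 and 4.99 CPM (-1.38, SE 0.29, adjusted p = 0.0685). *Mmp13*, at 112 and 123 against 152 and 141 CPM, differed by -0.29 (SE 0.20), and *Mmp9*, at 31.0 and 32.8 against 66.0 and 81.1 CPM, by -1.17 (SE 0.57). *Adamts9* differed by -0.01 (SE 0.10), and *Adamts1* differed by -0.30 (SE 0.16). *Adamts17* stood at 9.93 and 11.6 CPM with *R172H*, *Adamts18* at 9.57 and 11.8 CPM and *Adamts20* at 2.52 and 3.38 CPM, none of them called.

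**Figure D4:**
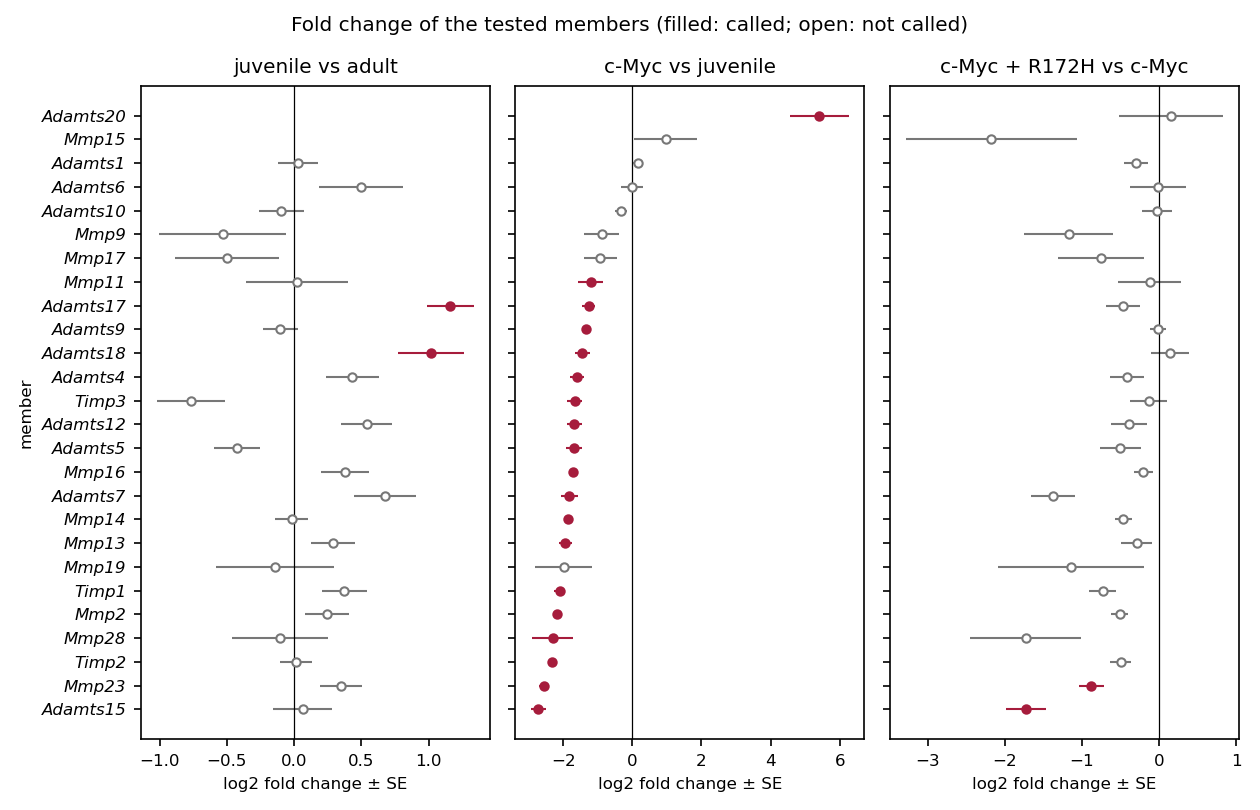
Log2 fold change with its SE for each tested gene in 3 comparisons, ordered by the *c-Myc* comparison; filled points were called. Points are spread on both sides of 0 for juvenile against adult with 2 called, 18 of 26 are called below 0 for *c-Myc* against juvenile, and 24 of 26 lie below 0 for *c-Myc* + *R172H* against *c-Myc* with 2 called. The fitted value of *Adamts20* against juvenile rests on 2 juvenile counts.

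Against the juvenile libraries, the *c-Myc* + *R172H* osteoblasts had 21 of 26 genes called lower and 1, *Adamts20*, higher, compared with 37.5% of all genes called, 17.9% lower and 19.6% higher. There were 22 genes separate from juvenile on the lower side, against 30.1% of all genes, and 1 on the higher side, against 36.6%. With library totals 11 genes were called lower and 2, *Adamts20* and *Adamts6*, were called higher. The median log2 fold change was -2.03 for the 26 genes and 0.08 for all genes. All 19 genes called with *c-Myc* alone were called here too, and *Mmp9*, *Mmp17* and *Mmp19* were called in addition. *Adamts15* was 21.7-fold, *Mmp23* 10.8-fold, *Timp1* 7.11-fold, *Timp2* 7.00-fold and *Mmp2* 6.42-fold below juvenile. The 4 genes not called in either comparison with juvenile were *Mmp15*, *Adamts1*, *Adamts6* and *Adamts10*.

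Matrix proteins that these families are known to cut fell as well. Of 24 substrate genes, all 24 were called lower with *c-Myc*, against 16% of all genes, with a median log2 fold change of -2.69. All 24 were called lower again with *c-Myc* + *R172H* against juvenile, against 17.9% of all genes, with a median of -3.75. Neither list of other genes, this one nor that of other proteases below, was counted on the scale of library totals. The largest decreases with *c-Myc* were in cartilage matrix genes, *Col10a1* (log2 fold change -6.33, SE 1.15), *Acan* (-5.73, SE 0.79), *Col9a1* (-5.70, SE 0.76) and *Col2a1* (-5.46, SE 0.58). All 10 chondrocyte markers and 8 of 10 osteoblast markers were called lower in the same comparison, against 16% of all genes. The part of either list in these values was not tested. Between *c-Myc* + *R172H* and *c-Myc*, 9 of the 24 substrate genes fell and none rose, against 0.461% and 0.00794% of all genes. Among these 9, the largest changes were in the proteoglycan and fibrillar genes *Lum* (-1.82), *Col3a1* (-1.71) and *Dcn* (-1.62), and in *Col4a1* (-1.25).

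With age, 3 of 24 substrate genes were called higher and 4 lower in juvenile osteoblasts, against 1.89% and 3.23% of all genes. *Spp1*, osteopontin, had a log2 difference of 1.23 and *Bcan*, brevican, of 1.08, whereas *Col2a1* (-1.92) and *Fmod*, fibromodulin (-1.73), were higher in adult libraries. Of the 10 chondrocyte markers, 9 were lower in juvenile than in adult libraries and 1 of them was called, against 3.23% of all genes called lower.

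Among other proteases and inhibitors outside the 3 families, 19 of 36 tested fell with *c-Myc* and 1 rose, against 16% and 18.4% of all genes. The median log2 fold change of the 36 was -1.50. Among them *A2m*, the broad inhibitor alpha-2-macroglobulin, had means of 29.9 CPM in juvenile and 1.04 CPM in *c-Myc* libraries (log2 fold change -4.88, SE 0.29), and *Ctsk*, cathepsin K, had means of 134 and 17.0 CPM (-3.00, SE 0.16). *Spock1* had no count in the induced libraries against a mean of 2.30 CPM in juvenile. *Ctss*, the gene that rose, had no juvenile count against a mean of 0.632 CPM with *c-Myc*. Each passed the expression filter of this fit only through the libraries in which it had counts. Their calls, which stand among the counts above, are therefore no separate support. With *R172H* added, 2 of the 36 were called, both lower, against 0.461% of all genes called lower. *Serpine2*, an inhibitor of serine proteases, and *Fap*, a membrane-bound serine protease, fell by 0.82 and 0.69 on the log2 scale. With age, 3 of 34 were called, against 5.12% of all genes, all lower in juvenile osteoblasts: *A2m* (-0.81), *Htra1* (-0.56) and *Ctsd* (-0.46).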

How the data were processed

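RNA-seq of 12 libraries was examined. The authors used cutadapt 4.6 for trimming, STAR 2.7.11a for alignment to mm10, counted reads per gene with HTSeq 2.0.5 (versions from the submitters' processing notes) and deposited raw counts without normalization. The strand setting of the counting was not stated. Libraries were grouped by their titles. Counts were tested in R 4.3.3 with edgeR 4.0.16 (TMM, default expression filter, robust quasi-likelihood F test, Benjamini-Hochberg over all genes tested), juvenile and adult libraries in one fit and the other 3 comparisons in a fit of the 8 libraries without the adult ones. SEs were approximated from the log2 fold change and its F statistic (size over root F). CPM used one TMM scale over the 12 libraries, and exon lengths came from GENCODE. Alternatives were RLE size factors, library totals, no filter, DESeq2 1.42.0, all 12 libraries in one fit, a replicate block and leaving out each library. Simulated counts, with the same dispersion for every gene, carried a log2 change of 1 in known genes. For juvenile against adult, 177 of 198 such genes and 7 others were called among 11230. For *c-Myc* against juvenile these were 118 of 197 and 7 among 12206 (adjusted p alone), and for *R172H* against *c-Myc* 81 of 194 and 3 among 12185. The real libraries differ from the simulated ones in spread and composition, so these numbers are no error rates for them. The genes and lists were chosen with earlier results of these data known. Genes followed in every library were those called with age or *R172H*, those with the 3 largest increases and decreases with *c-Myc*, and the 5 highest per kilobase in juvenile libraries. *Adamts1*, *Mmp9*, *Adamts5*, *Timp3* and *Adamts7* were described further after their values were seen. Other lists name at most 4 genes. Total counts of 9066154 to 15684412 limit the precision, and intervals cover counting error only.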

Additional observations from a re-analysis of the deposited data

Results flagged for a closer look

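In groups of 4 libraries, Dixon's test was applied to 51 sets of values and marked 3, where chance alone marks about 1 in 20. *Adamts18* in juvenile replicate 3 was at 21.6 CPM, below the other juvenile libraries at 27.7 to 28.5 CPM. *Adamts5* in adult replicate 2 was at 61.3 CPM, above the other adult libraries at 46.4 to 47.8 CPM. *Adamts20* in juvenile replicate 1 was at 0.183 CPM, which is 2 counts, with no count in the other juvenile libraries.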

How the results depend on the processing

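With library totals, 10 of 26 genes were called for *c-Myc* against juvenile, 13 for *c-Myc* + *R172H* against juvenile and 0 for *c-Myc* + *R172H* against *c-Myc* (5 at an unadjusted p of 0.05), and the age differences of *Adamts15* (-0.17) and *Timp2* (-0.23) changed sign. For *c-Myc* + *R172H* against *c-Myc*, 7 genes were called without a filter, 7 with DESeq2 and 7 with the replicate block. With all 12 libraries in one edgeR fit 0 were called, and 10 passed an unadjusted p of 0.05. The shares of all genes called, or passing an unadjusted p of 0.05, under the alternative settings are not given here. The counts of these genes under them therefore have no background beside them. Leaving out 1 library gave 1 to 5 genes with age (5 without adult replicate 2, and 1 without juvenile replicate 1, 2 or 4 or adult replicate 4), 18 to 20 for *c-Myc*, 18 to 22 for *c-Myc* + *R172H* against juvenile, and 0 to 5 for *c-Myc* + *R172H* against *c-Myc* (5 without juvenile replicate 4, 1 without juvenile replicate 1 or 2 or *c-Myc* replicate 1). Where 1 library remained in a group, it was assumed to vary like the others. The causes were not tested, apart from the smaller number of libraries. Leaving out a library also reversed small age differences of *Timp2* (-0.036 to 0.083), *Mmp14* (-0.083 to 0.032) and *Adamts15* (-0.14 to 0.24), and the *R172H* differences of *Adamts18* (-0.16 to 0.45) and *Adamts20* (-0.11 to 0.32). With the replicate block, 3 genes were called with age, 21 with *c-Myc* and 21 with *c-Myc* + *R172H* against juvenile. The title numbers were not taken to pair the libraries: same-numbered juvenile and adult libraries correlated at -0.07 to 0.04 in their deviations. For *c-Myc* and *c-Myc* + *R172H* the correlation was 0.16, a single value with 2 libraries a group, and replicate 2 of both had high *Xist*, so whether those numbers mark a shared litter or day is not known. Over the genes followed in every library, 496 results kept their direction and their side of the threshold, 22 lost and 15 gained a call, and 13 reversed. Depth limits the genes near 3 counts.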

Other observations

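A few genes under the filter had counts in some groups only, and they are given as counts with no test. *Mmp10*, stromelysin-2, had 6, 2, 8 and 0 counts in juvenile, 1, 13, 9 and 17 in adult and none in the 4 induced libraries, where 3 counts correspond to 0.137 to 0.170 CPM. *Mmp3*, stromelysin-1 and its neighbour, had none in juvenile, 1, 13, 3 and 4 in adult and 1 in all induced libraries together. *Mmp12*, macrophage elastase, had none in juvenile, 8, 1, 2 and 0 in adult, and 2, 2, 8 and 3 in the induced libraries. The macrophage and neutrophil list summed to 1.28 to 5.70 CPM in juvenile, 7.49 to 12.3 CPM in adult and 7.45 to 12.5 CPM in induced libraries.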
